A study of Mus musculus with 9 samples.

Results

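The genes described here make, bind, remove or respond to retinoic acid. With earlier results of these data known, 9 were chosen by name: Aldh1a1, Aldh1a2, Aldh1a3, Crabp1, Crabp2, Cyp26b1, Rarb, Stra6 and Dhrs3. All 9 were found among the 19147 genes that the arrays measured with probe sets of a single gene symbol, and they were covered by 11 of the 38385 probe sets. Rarb and Dhrs3 had an additional probe set each, and the brighter one gave the main value. Expression was measured on 9 custom Affymetrix arrays, 1 for each mouse, in total RNA of C57BL/6 brain, which the series describes as cerebellum at postnatal day 5. Wild-type mice (3 arrays) were compared with 3 mice labelled SmoA2 mutant and 3 labelled Smo/Smo mutant. Both mutant lines carry an activated form of Smoothened, the membrane protein that relays the Sonic hedgehog signal, as a transgene. SmoA1 and SmoA2 are the 2 activated forms, and a fragment of the ND2 (Neurod2) promoter active in granule neuron precursors drives each. The labels do not say which form Smo/Smo mice carry; SmoA1 is assumed here, since the other mutant group is labelled SmoA2. Animal codes begin differently in the Smo/Smo group than in the remaining mice, so source and genotype cannot be told apart in comparisons with that group.

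Retinoic acid is the active form of vitamin A. Cells take up retinol, oxidise it to retinaldehyde and then, with retinaldehyde dehydrogenases of the Aldh1a family, to retinoic acid. Retinoic acid is held in the cytoplasm by the binding proteins Crabp1 and Crabp2, enters the nucleus to act on receptors that sit on DNA as pairs with Rxr partners, and is broken down by Cyp26 enzymes. Around the developing brain, the meninges are a known site of its synthesis through Aldh1a2.

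The promoters of 3 members are shown as background: Aldh1a2 and Crabp1 for the 2 widest differences of the members, and Rarb as the standard example of a gene that retinoic acid induces. RefSeq promoter windows on GRCm38.p6, from 250 bases before to 50 after a start site, were found for 7 of the 9 members, with 13 windows in all. They were searched on both strands for 2 copies of a receptor half-site in the same direction, 5 bases apart (a direct repeat called DR5), where a half-site could read AGGTCA, also AGTTCA, also GGGTCA and also GGTTCA. Of all 32851 windows, 32 held a DR5 (0.0974%), and of the 13 member windows 1 did. That was the window of Rarb, at chr14:16575427-16575726 on the minus strand, with the repeat starting 53 bases before the start site (capitals).
Rarb: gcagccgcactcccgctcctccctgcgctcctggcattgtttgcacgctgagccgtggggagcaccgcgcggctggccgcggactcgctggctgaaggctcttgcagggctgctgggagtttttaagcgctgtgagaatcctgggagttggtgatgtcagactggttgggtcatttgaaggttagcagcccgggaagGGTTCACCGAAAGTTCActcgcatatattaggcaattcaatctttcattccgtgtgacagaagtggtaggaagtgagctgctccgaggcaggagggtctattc
In the Aldh1a2 window, chr9:71215539-71215838 on the plus strand, 78.0% of bases were G or C, against a median of 52.7% over all windows. The capitals mark CCAAT, present in 37.4% of all windows, and TATATA, present in 5.67%.
Aldh1a2: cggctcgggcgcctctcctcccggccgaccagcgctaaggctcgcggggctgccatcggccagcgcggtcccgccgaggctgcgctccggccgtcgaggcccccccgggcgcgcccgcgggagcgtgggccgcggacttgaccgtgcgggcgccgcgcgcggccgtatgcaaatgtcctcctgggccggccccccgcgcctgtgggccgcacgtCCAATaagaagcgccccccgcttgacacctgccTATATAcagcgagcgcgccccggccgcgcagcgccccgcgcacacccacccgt
In the Crabp1 window, chr9:54764498-54764797 on the plus strand, the capitals mark 5 copies of GGGCGG on either strand, a word found in 35.7% of windows.
Crabp1: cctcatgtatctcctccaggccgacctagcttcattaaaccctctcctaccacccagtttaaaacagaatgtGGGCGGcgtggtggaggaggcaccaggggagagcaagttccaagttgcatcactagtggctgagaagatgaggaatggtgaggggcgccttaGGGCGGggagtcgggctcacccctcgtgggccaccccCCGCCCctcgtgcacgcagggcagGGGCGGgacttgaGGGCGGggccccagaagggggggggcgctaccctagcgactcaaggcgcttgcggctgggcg
These matches describe the letters of the windows and were not tested for binding.

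The values below are log2 intensities, on which 1 unit is a doubling. Probe sets of 1032 olfactory and vomeronasal receptor genes served as an indication of background: their 95th percentile was 5.04. The means of 8 members lay above it. Aldh1a3 lay below, with a mean of 4.78 over all arrays. Differences were tested with limma on all 9 arrays, with Benjamini-Hochberg adjustment over the 19147 genes, and a gene was called at an adjusted p under 0.05. The array medians lay between 91.0 and 95.1 in linear units, and 3 arrays a group limit the precision. The 9 animal codes differ, but nothing says whether mice shared a litter. The p-values treat the arrays as independent and set each difference against the spread between these samples only.

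The tissue itself was checked against markers. All 9 measured markers of the granule neuron lineage and all 8 of Purkinje cells lay above background, and 4 of 6 forebrain markers did not. The other 2 forebrain markers, Neurod6 and Dlx5, lay above it, at 8.96 to 9.44 and 5.52 to 5.89 over the arrays. Wild type replicate 3 stood apart in markers of the choroid plexus, the epithelium that makes cerebrospinal fluid. Its summed intensity over 11 such markers was 2051, against 6321 and 6609 in the other wild types, 8790 to 10393 in SmoA2 and 10553 to 12141 in Smo/Smo. Ttr, the most abundant product of that epithelium, stood at 4.95 there, near background, and at 11.26 or more in the other 8 arrays. Among the members, the widest range over the 3 wild-type arrays was 0.40, for Crabp1, which was lowest in this array.

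In SmoA2, 3 of the 9 members fell against wild type and none rose: the synthesis enzymes Aldh1a2 and Aldh1a1 and the binding protein Crabp2. Among all genes, 1.73% were called lower and 0.961% higher. The members and the lists below were chosen with earlier results of these data known. Shares of all genes are therefore given as a scale beside their counts, not as a test. The median difference of the members was -0.05, and that of all genes 0.01. In Smo/Smo, none of the 9 was called, against 0.371% of all genes, and the unadjusted p of Crabp1 and of Crabp2 was under 0.05 in limma. The direct comparison of the mutant lines called 3 members lower in SmoA2 than in Smo/Smo: Aldh1a2, Aldh1a1 and Crabp1, with 1.54% of all genes called in that direction. Both comparisons with wild type share the same 3 wild-type arrays, so they are not independent of each other. Among all genes, 0.214% were called higher in Smo/Smo and 0.157% lower, and 1.02% were called higher in SmoA2 than in Smo/Smo.

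Before adjustment, 4 of 9 members had a p under 0.05 in limma in SmoA2 against wild type, beside 14.8% of all genes. The counts were 2 of 9 in Smo/Smo against wild type, beside 8.77%, and 6 of 9 between the mutants, beside 14.3%. In SmoA2 against wild type, 4 members (Aldh1a2, Aldh1a1, Crabp2 and Rarb) lay wholly below the wild-type arrays and 1 (Cyp26b1) wholly above, where 10.2% and 8.89% of all genes did. In Smo/Smo, 2 lay wholly below (Crabp2 and Aldh1a3) and 2 above (Crabp1 and Stra6), where 8.12% and 7.82% of all genes did. Between the mutants, 6 members lay wholly lower in SmoA2 and 1 wholly higher, where 10.1% and 8.12% of all genes did.

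**Figure D1:**
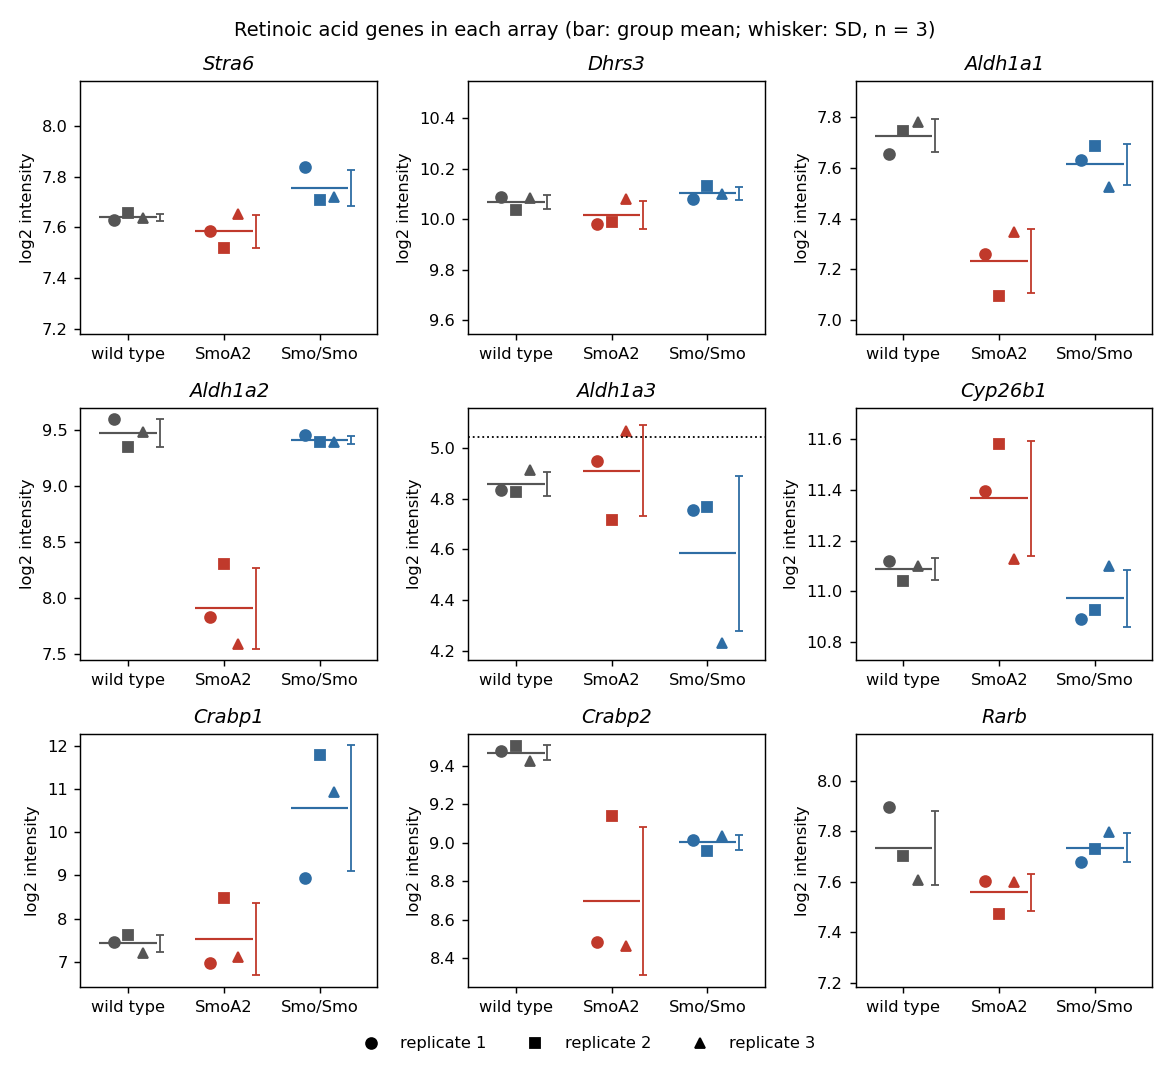
Log2 intensity (vertical axis) of each member in the 9 arrays, by group, with the replicate shown by the marker shape, the group mean as a bar and the SD as a whisker. The scales differ between panels, and the dotted line for Aldh1a3 is the background level of 5.04. Aldh1a2 lies at 7.59 to 8.30 in SmoA2 and at 9.34 or above elsewhere, while Crabp1 spreads from 8.94 to 11.79 in Smo/Smo.

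Aldh1a2, the main retinaldehyde dehydrogenase of the meninges, stood at 9.60, 9.34 and 9.48 on the log2 scale in the 3 wild-type arrays, in replicate order. SmoA2 arrays gave 7.83, 8.302 and 7.59, and Smo/Smo arrays 9.45, 9.39 and 9.39. All 3 SmoA2 arrays lay below all 6 others, and replicate 2 was the highest of them, while Smo/Smo and wild type overlapped. The mean was 9.47 ± 0.13 (SD, n = 3) in wild type, 7.91 ± 0.36 in SmoA2 arrays and 9.41 ± 0.04 in Smo/Smo. The fall against wild type was 2.96-fold (log2 difference -1.57 ± 0.15, SE, limma adjusted p = 0.00114), and only 2 of the 19147 genes had a lower difference. Against Smo/Smo, SmoA2 was 2.84-fold lower (log2 difference -1.51, adjusted p = 0.00186). Smo/Smo differed from wild type by -0.06 on the log2 scale, with a 95% interval of -0.41 to 0.29 (adjusted p = 0.951). The order was therefore wild type and Smo/Smo together, which did not differ beyond their spread, and SmoA2 below both. The 2 calls held in all 20 alternatives run, including each fit without 1 array. Log2 differences ran from -1.76 to -1.41 against wild type and from -1.704 to -1.35 against Smo/Smo. Some alternatives could not move the differences: Aldh1a2 has a single probe set, and the filter and the stricter threshold leave its values as they are.

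Aldh1a1, a related retinaldehyde dehydrogenase that is also known from midbrain dopamine neurons, fell less. Wild-type arrays gave 7.66, 7.75 and 7.78, SmoA2 arrays 7.26, 7.096 and 7.35, and Smo/Smo arrays 7.63, 7.69 and 7.53. The SmoA2 arrays again lay below all 6 others, and Smo/Smo overlapped wild type. The fall against wild type was 1.41-fold (log2 difference -0.49 ± 0.08, SE, limma adjusted p = 0.0122). That against Smo/Smo was 1.30-fold (-0.38, adjusted p = 0.0421), and Smo/Smo against wild type gave -0.11 (95% interval -0.29 to 0.06). The call against wild type ended without wild type replicate 2 (adjusted p = 0.0571) or replicate 3 (0.05003), and without replicate 3 of wild type and of SmoA2 together (0.0529). The call against Smo/Smo held in 1 of 9 fits without an array, that without SmoA2 replicate 3 (adjusted p = 0.0372), and ended without any of the other 8 (0.0643 to 0.157). It also ended with quantile normalization (0.0509), centring on array medians (0.0588), the probe sets of highest variance (0.0521) and only the groups compared (0.111). Of the 9 markers of midbrain dopamine neurons and floor plate, 7 lay above background on average, among them Ddc at 7.39, Nr4a2 at 6.74, Slc6a3 at 6.35 and Th at 5.65, and Pitx3 and Foxa1 lay below it. Only Foxa2 among those 9 was called in SmoA2 against wild type (log2 difference 2.58, higher, adjusted p = 0.00130).

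Aldh1a3, the last of the family, had all 3 group means below the background level. Its group means were 4.86 in wild type, 4.91 in SmoA2 arrays and 4.58 in Smo/Smo. The highest array, SmoA2 replicate 3, read 5.07, just above that level, and the lowest, Smo/Smo replicate 3, read 4.23. No difference was called (adjusted p = 0.349 to 0.905).

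**Figure D2:**
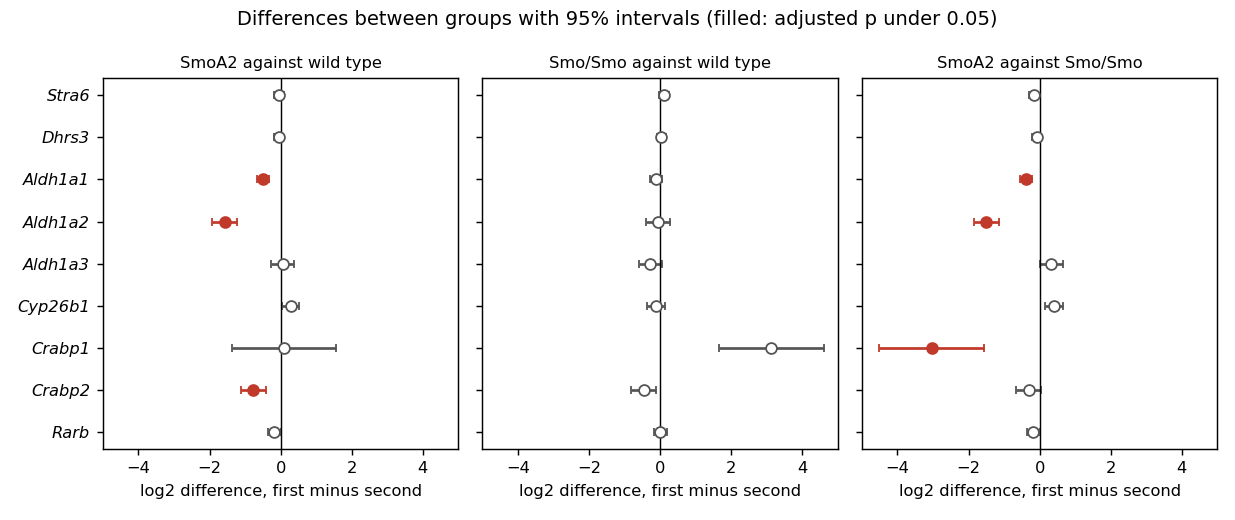
Log2 difference of each member (horizontal axis, first group minus second) in the 3 comparisons, with 95% intervals from limma; filled points had an adjusted p under 0.05. Aldh1a2 stands at -1.57 against wild type and -1.51 against Smo/Smo, and Crabp1 has the widest intervals.

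Crabp2, which carries retinoic acid to its receptors, was highest in wild type, with 9.48, 9.502 and 9.43. It stood at 9.01, 8.96 and 9.04 in Smo/Smo and at 8.48, 9.14 and 8.46 in SmoA2. Neither mutant line overlapped wild type, but the mutants overlapped each other, since SmoA2 replicate 2 lay above all Smo/Smo arrays and the other SmoA2 arrays below them. The fall in SmoA2 was 1.71-fold (log2 difference -0.77 ± 0.16, SE, limma adjusted p = 0.0359). In Smo/Smo the difference was -0.47 ± 0.16 and was not called (adjusted p = 0.418), though the groups did not overlap. The mutants differed by -0.31 (95% interval -0.66 to 0.05, adjusted p = 0.434).

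SmoA2 replicate 2 decided how Crabp2 was read. Without it, the difference from wild type was -0.996 (adjusted p = 0.000201), Smo/Smo was called lower than wild type (-0.47, adjusted p = 0.0192) and SmoA2 was called lower than Smo/Smo (-0.53, adjusted p = 0.00596). Without any other single array, the call against wild type ended (adjusted p 0.0603 to 0.120), as it did in a fit of SmoA2 and wild type alone (0.108). In a fit of Smo/Smo and wild type alone, Crabp2 was also called lower (adjusted p = 0.0399). The same array was the highest of its group in Aldh1a2, Crabp1 and Cyp26b1 too and the lowest in Aldh1a1, Aldh1a3, Rarb and Stra6, and its meningeal markers were the highest of the SmoA2 arrays.

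Crabp1, the other cytoplasmic binding protein, gave the highest difference of all 19147 genes in Smo/Smo against wild type, and also the widest scatter of the members. Its log2 intensities were 8.94, 11.79 and 10.93 in Smo/Smo replicates 1, 2 and 3, or 492, 3539 and 1955 in linear units. Wild type stood at 7.45, 7.61 and 7.21, and SmoA2 at 6.97, 8.49 and 7.10. Every Smo/Smo array lay above the 6 others. The SD within Smo/Smo was 1.46, larger than that of 99.97% of genes in that group, and within SmoA2 it was 0.84. The mean difference from wild type was 8.75-fold, with a 95% interval of 3.16 to 24.2-fold (log2 difference 3.13 ± 0.65, SE, limma adjusted p = 0.128), and it was not called.

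SmoA2 differed little from wild type in Crabp1 (0.09, 95% interval -1.38 to 1.56), with overlapping arrays, and was 8.202-fold lower than Smo/Smo (-3.04, adjusted p = 0.0474). That call against Smo/Smo held without SmoA2 replicate 2 (adjusted p = 0.0389) and without Smo/Smo replicate 1 (0.00819). It ended without any of the other 7 arrays (adjusted p 0.0734 to 0.148), with an intensity trend (0.116) and with only the groups compared (0.134). Against wild type, Crabp1 was called in Smo/Smo without Smo/Smo replicate 1 (3.94, adjusted p = 0.0176) and with array weights (3.49, adjusted p = 0.0398). The 2 calls with replicate 1 left out rest on replicates 2 and 3, the arrays with the highest values.

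Cyp26b1, which hydroxylates retinoic acid and so removes it, was bright in every array. It stood at 11.12, 11.04 and 11.10 in wild type, 11.39, 11.58 and 11.13 in SmoA2 arrays and 10.89, 10.92 and 11.10 in Smo/Smo. All 3 SmoA2 arrays lay above all others, replicate 3 by a small step, and Smo/Smo overlapped wild type. No comparison was called: the difference was 0.28 ± 0.11 (SE, adjusted p = 0.272) for SmoA2 against wild type and 0.40 (adjusted p = 0.113) against Smo/Smo. Without SmoA2 replicate 3, the direct comparison gave 0.52 (adjusted p = 0.0300), and it was also called with array weights (0.47, 0.0366) and with an intensity trend (0.40, 0.0365).

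Rarb, a retinoic acid receptor whose own gene is a standard response gene, did not pass the test in any comparison. Wild type had 7.89, 7.703 and 7.605, SmoA2 7.604, 7.47 and 7.597, and Smo/Smo 7.68, 7.73 and 7.795. SmoA2 lay lowest, but its highest array and the lowest wild-type array were almost equal. The difference of SmoA2 from wild type was -0.18 (95% interval -0.36 to 0.01, adjusted p = 0.366). For Smo/Smo it was 0.00 (interval -0.18 to 0.19). The other Rarb probe set was dim, at 5.31 to 5.66, and differed by 0.01 in SmoA2 and 0.12 in Smo/Smo from wild type.

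Stra6, the membrane receptor that takes up retinol from its carrier in blood, and Dhrs3, which returns retinaldehyde to retinol, varied little. Stra6 lay between 7.52 and 7.84 in all 9 arrays. Its 3 Smo/Smo arrays, at 7.71 to 7.84, were above the 6 others, but the differences from wild type (0.12, adjusted p = 0.655) and from SmoA2 were not called. SmoA2 against wild type gave -0.05 (95% interval -0.19 to 0.08). The main Dhrs3 probe set lay between 9.98 and 10.13, and the other between 7.45 and 7.68. Dhrs3 differences were -0.05 in SmoA2 (interval -0.17 to 0.07) and 0.03 in Smo/Smo (-0.09 to 0.16).

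The rest of the pathway was followed in 6 lists of 62 genes, of which 53 were measured and 21 lay near background. In SmoA2, 3 of the 53 fell and none rose, or 5.66%, against 2.69% of all genes called in either direction. Their median difference was 0.02, and that of all genes 0.01. In Smo/Smo none was called in limma, with 5 at an unadjusted p under 0.05, and in the direct comparison 2 were called lower in SmoA2, or 3.77% against 2.56% of all genes.

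**Figure D3:**
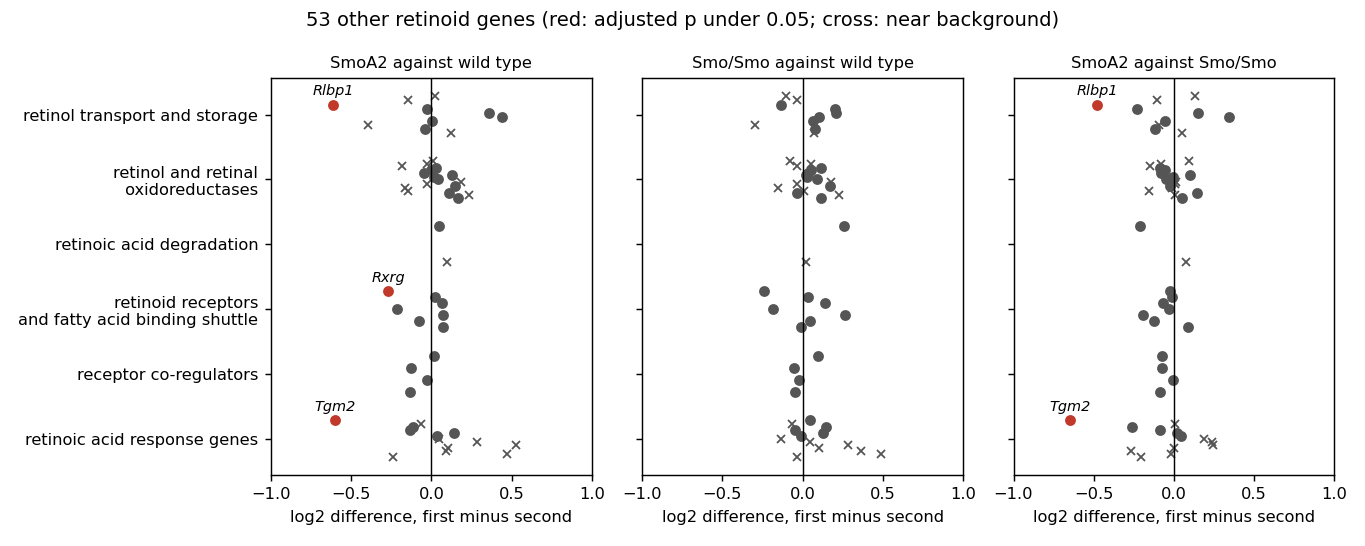
Log2 differences (horizontal axis, first group minus second) of 53 further retinoid genes in 6 lists, 1 point per gene; red points had an adjusted p under 0.05 and crosses mark genes near background. Rlbp1, Rxrg and Tgm2 stand to the left of 0 in SmoA2 against wild type, at -0.61, -0.27 and -0.60.

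Among genes of retinol transport and storage, 1 of 10 fell in SmoA2. This was Rlbp1, which binds retinaldehyde in glia of the retina. It read 8.27, 8.34 and 8.41 in wild type, 7.62, 7.62 and 7.93 in SmoA2 arrays and 8.23, 8.18 and 8.203 in Smo/Smo, with SmoA2 below all others. The fall was 1.53-fold against wild type (log2 difference -0.61, limma adjusted p = 0.00741), called in each of the 9 fits without an array, and 1.39-fold against Smo/Smo (-0.48, adjusted p = 0.0257). The call against Smo/Smo ended without wild type replicate 2, SmoA2 replicate 1 or 2, or any 1 Smo/Smo array (adjusted p 0.0511 to 0.0922), and with only the groups compared (0.0808). Rbp4, the carrier of retinol in blood, gave 0.36 (adjusted p = 0.239).

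None of 17 retinol and retinaldehyde oxidoreductases was called in any comparison. In SmoA2 against wild type 2 of them had an unadjusted p under 0.05, in Smo/Smo 1 and between the mutants 0. Rdh10, which makes retinaldehyde from retinol, differed by 0.04 in SmoA2 (95% interval -0.11 to 0.20), and Rdh13, a mitochondrial relative, by -0.05. Of the other degradation enzymes, Cyp26a1 lay near background at 4.17 on average and Cyp26c1 differed by 0.05 in SmoA2 (interval -0.19 to 0.28) and 0.26 in Smo/Smo (adjusted p = 0.512).

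Of 7 receptors and shuttle genes, Rxrg, a partner of the retinoic acid receptors, fell by 0.27 on the log2 scale in SmoA2 (adjusted p = 0.0475). It read 8.48, 8.51 and 8.45 in wild type, 8.15, 8.25 and 8.24 in SmoA2 arrays and 8.17, 8.29 and 8.26 in Smo/Smo. Both mutant lines lay below wild type and overlapped each other, and the Smo/Smo difference of -0.24 was not called (adjusted p = 0.192). The SmoA2 call ended without any 1 of the 9 arrays (adjusted p 0.0604 to 0.157), and also with quantile normalization (0.0781), centring (0.0816), the probe sets of highest variance (0.0719) and only the groups compared (0.119). Rxrb, another partner, differed by 0.02 in SmoA2 and 0.03 in Smo/Smo, and Fabp5, a binding protein that can carry retinoic acid to Ppard, by 0.07 and -0.01.

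None of 4 co-regulators was called in a comparison, and none had an unadjusted p under 0.05. Ncoa1, a coactivator, and Nrip1, a corepressor, differed by -0.13 and 0.02 in SmoA2. Of 13 response genes 8 lay near background, Hox genes of the hindbrain among them. Nr2f1 and Meis1, transcription factors, differed by -0.14 and 0.03 in SmoA2. Tgm2, a transglutaminase that retinoic acid induces in many cells, was the 1 response gene called. It read 6.89, 7.06 and 6.89 in wild type, 6.38, 6.12 and 6.55 in SmoA2 arrays and 7.07, 6.9997 and 6.91 in Smo/Smo. SmoA2 lay below all others, by 1.52-fold against wild type (-0.60, adjusted p = 0.0196) and 1.56-fold against Smo/Smo (-0.65, adjusted p = 0.0158). The call against wild type ended without any wild type array or without SmoA2 replicate 1 (adjusted p 0.0510 to 0.0848). The call against Smo/Smo ended without SmoA2 replicate 1 or Smo/Smo replicate 1 or 2 (0.0523 to 0.0683), and both ended with only the groups compared (0.0675 and 0.0535).

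Some markers of the meninges fell in SmoA2, as did Aldh1a2 and Crabp2. The list of 19 measured meningeal and fibroblast markers leaves out the members. In SmoA2, 12 of the 19 lay wholly below wild type and 1 (Lum) wholly above, where 10.2% and 8.89% of all genes did. The median difference was -0.44. In limma 9 were called lower and none higher, against 1.73% and 0.961% of all genes. Of these 9, 3 stayed called without wild type replicate 2, wild type replicate 3 or SmoA2 replicate 3, 4 without wild type replicate 1 or SmoA2 replicate 1, and 5 without Smo/Smo replicate 2 or 3. Without Smo/Smo replicate 1 there were 6, and without SmoA2 replicate 2 all 9. The 3 named next were called in each of these fits. In Smo/Smo none was called in limma, against 0.371% of all genes. There 5 had an unadjusted p under 0.05, beside 8.77% of all genes, and the median was -0.11. Slc22a6, an organic anion transporter, stood at 9.57 to 9.63 in wild type, 7.99 to 8.50 in SmoA2 arrays and 9.29 to 9.34 in Smo/Smo. Slc6a13, a GABA transporter, stood at 9.72 to 9.84, 8.47 to 8.97 and 9.60 to 9.65, and Tbx18, a mural and mesenchymal transcription factor, at 8.15 to 8.31, 7.44 to 7.65 and 8.04 to 8.31. The summed intensity of the list was 23158 to 23998 in wild type, 16798 to 20357 in SmoA2 arrays and 22093 to 22933 in Smo/Smo. Of the 19, only Dpt lay near background. In bulk tissue, fewer cells of a type and less RNA per cell cannot be told apart, and the part of these markers in the falls of Aldh1a2 and Crabp2 was not tested.

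**Figure D4:**
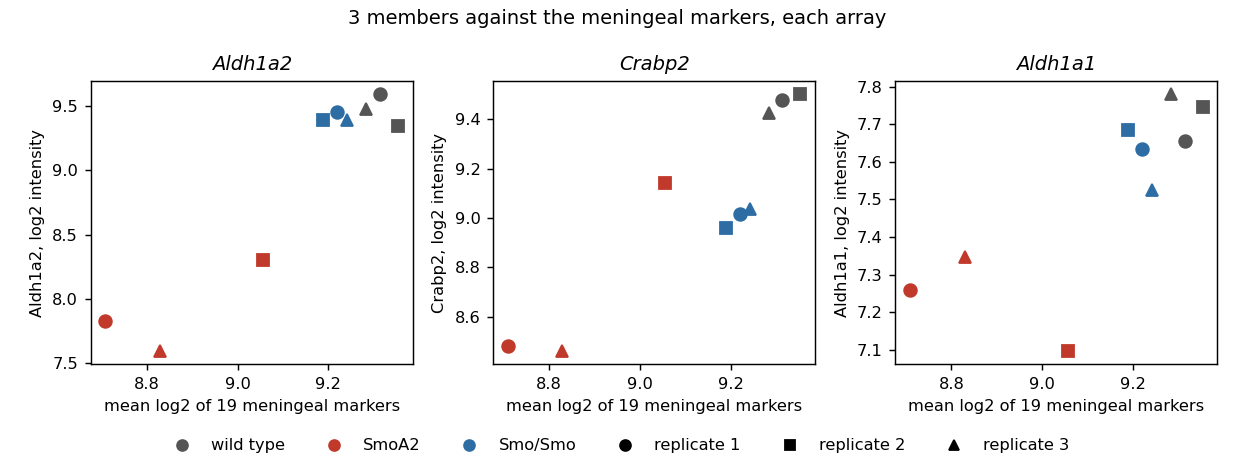
Log2 intensity of Aldh1a2, Crabp2 and Aldh1a1 (vertical axes) against the mean log2 intensity of 19 meningeal markers (horizontal axis), 1 point per array, with colour for group and shape for replicate. For Aldh1a2 and Crabp2, SmoA2 replicates 1 and 3 are low on both axes and replicate 2 is higher on both, while Aldh1a1 is lowest in replicate 2.

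The differences of the members and of that list stand side by side. In SmoA2 against wild type Aldh1a2 differed by -1.57, Crabp2 by -0.77 and Aldh1a1 by -0.49, and the 19 markers ranged from -1.42 to 0.38. In Smo/Smo against wild type Aldh1a2 differed by -0.06, Crabp2 by -0.47 and Aldh1a1 by -0.11, and the markers ranged from -0.67 to 0.31. Per array, log2 Aldh1a2 minus the mean of the list was -0.01 to 0.28 in wild type, -1.24 to -0.75 in SmoA2 and 0.15 to 0.23 in Smo/Smo. For Crabp2 it was 0.14 to 0.16, -0.37 to 0.08 and -0.23 to -0.21. For Aldh1a1 it was -1.66 to -1.50, -1.96 to -1.45 and -1.72 to -1.50.

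Other marker lists also differed in SmoA2 and are given as context for the members. Among all genes, limma called 1.73% lower and 0.961% higher, and 14.8% had an unadjusted p under 0.05. Among 12 Bergmann glia and astrocyte markers, Gdf10 (-0.59), Gjb6 (-0.95) and Septin4 (-0.42) fell, and Septin4 lost its call in 5 of the 9 fits without an array. All 8 Purkinje markers lay wholly below wild type, each with an unadjusted p under 0.05 in limma. Of these 8, 4 were called, among them Lhx5 (-0.66), and 2 of the 4 stayed called without wild type replicate 1 or 2. Of 13 endothelial and mural markers 2 fell, Tek (-0.29) and Kdr (-0.297), and Tek lost its call in 7 and Kdr in 9 of the 9 fits without an array (adjusted p up to 0.126 and 0.125). Of 9 granule lineage markers Atoh1 rose (0.82) and Barhl2 fell (-0.52), the latter not without wild type replicate 2 (adjusted p = 0.0580). None of 6 forebrain, 6 oligodendrocyte, 6 microglial and 11 choroid plexus markers was called in SmoA2 against wild type in limma, with 0, 2, 3 and 10 at an unadjusted p under 0.05. Their part in the differences of the members was not tested.

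The genes whose pattern over the 9 arrays was most like that of the called members were listed by Pearson correlation, as a description. All arrays share the group structure, so high values arise easily. For Aldh1a2 they were Fam180a (r = 0.989), Lhfpl3 (0.986), Dab2 (0.985), Cxcl12 (0.984) and Grm3 (0.982). None is in the short list of 19 meningeal markers, which does not show whether the meninges express them. In SmoA2 against wild type these genes stood at -1.33, -0.26, -0.43, -0.46 and -0.40. For Aldh1a1 they were Gamt (r = 0.991), Pax2 (0.981), Tac2 (0.974), Grp (0.971) and Gfod1 (0.970), each called lower in SmoA2 than in wild type (log2 differences -0.98 to -0.51). For Crabp2 they were Iqsec3 (r = 0.985), St8sia2 (0.977), Thbd (0.974), Fmod (0.970) and Sidt1 (0.962). The nearest genes differed between the 3 members, with none in common.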

How the data were processed

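Total RNA of 9 mouse cerebella was hybridised to 1 custom Affymetrix array each. The authors deposited probe set intensity values summarised by RMA, with no version stated, per the labels' processing notes. The values proved linear, so log2 was taken. RMA puts all arrays on a common distribution, so a shift of all genes would not show. Of 38385 probe sets, 24478 had 1 symbol, 65 several and 13842 none, and the brightest probe set stood for each of 19147 genes. The platform annotation named them, and 24237 matched RefSeq of GRCm38.p6 by gene number. limma 3.58.1 (R 4.3.3) fitted 1 model of a mean per group without covariates. On simulated data for SmoA2 against wild type with 200 of 19147 genes changed, 68.8% of changes of 0.5 and 98.4% of changes of 1 on the log2 scale were recovered, and 4.68% of calls were false. The simulated noise was normal and independent, with the same SD for a gene in every group. In the data, spreads differed: Crabp2 had an SD of 0.39 in SmoA2 and 0.04 in wild type and in Smo/Smo. The simulated rates therefore do not carry over to such genes.

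The members and lists were chosen with earlier results of these data known. Named besides the members were called genes and the 2 brightest of each retinoid list, up to 3 called genes with the smallest p of a marker list or else the 2 brightest, and the 5 genes most correlated with at most 3 called members. Some of these are given by count only. The alternatives were other probe sets, a filter at the background level, quantile normalization, centring, an intensity trend, array weights, fits restricted to the 2 groups at hand, 16 added before log2, a stricter threshold and leaving out arrays. Figures used matplotlib 3.10.9 in Python 3.11.15.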

Additional observations from a re-analysis of the deposited data

Results flagged for a closer look

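The mutant lines differed from each other in 3 of the 9 members and 2 of the 53 other retinoid genes by the direct test of SmoA2 against Smo/Smo in limma, which is the test of whether their differences from wild type are equal. Aldh1a2 was lower in SmoA2 by a log2 difference of -1.51, with all 3 SmoA2 arrays below all 3 Smo/Smo arrays (adjusted p = 0.00186). Crabp1 gave -3.04, also in 3 of 3 arrays (adjusted p = 0.0474), on Smo/Smo arrays that ranged over 7.19-fold among themselves. Tgm2 gave -0.65 (adjusted p = 0.0158), Rlbp1 -0.48 (0.0257) and Aldh1a1 -0.38 (0.0421), each in 3 of 3 arrays. Without single arrays, Aldh1a2 was called in 9 of 9 fits, Tgm2 in 6, Rlbp1 in 3, Crabp1 in 2 and Aldh1a1 in 1. Among all genes, 2.56% were called in this comparison. Cell type markers moved in it too: 5 of 19 meningeal, 3 of 13 endothelial and mural, 3 of 12 Bergmann glia and astrocyte and 3 of 8 Purkinje markers were called lower in SmoA2. Of 6 microglial markers 2 were called higher, P2ry12 (0.80, adjusted p = 0.01002) and Aif1 (0.57, 0.0251). Their part in the differences of the retinoid genes was not tested.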

How the results depend on the processing

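Over 20 alternatives for each member and comparison (19 for Aldh1a3, which the filter at the background level leaves out), 537 values in all, 478 kept their direction and their side of the threshold, 40 lost a call, 8 gained one and 11 changed sign, none of them a called value. Aldh1a2 kept both of its calls in every alternative. The members called in SmoA2 against wild type numbered 3, and 1 at an adjusted p under 0.01 or without wild type replicate 3 and SmoA2 replicate 3 together, with 1 to 3 over the fits without single arrays. In Smo/Smo the count was 0, and 1 with array weights (Crabp1) or with only the groups compared (Crabp2), with 0 to 1 without single arrays. Between the mutants it was 3, and 1 with only the groups compared, at the stricter threshold or without wild type replicate 3 and SmoA2 replicate 3, with 1 to 3 without single arrays. It rose to 4 with array weights, where Cyp26b1 was called too. Of the other retinoid genes, 3 were called in SmoA2 against wild type, and 1 with only the groups compared or at the stricter threshold, with 1 to 2 without single arrays. Their highest count was 4, among the 10 alternatives of processing or threshold. Between the mutants 2 were called, and 0 with only the groups compared or at the stricter threshold, with 0 to 2 without single arrays. Leaving out an array of the third group does not alter the difference between the other 2 groups, only its p-value. Crabp2 in SmoA2 against wild type, for example, stayed at -0.77 without any 1 Smo/Smo array (limma adjusted p 0.0603 to 0.0647). The cause of the other changes was not tested, apart from the stricter threshold itself.

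Signs changed only in values that were not called. In SmoA2 against wild type, Rarb gave 0.006 with the probe set of highest variance, which is its dim one. Over the fits without single arrays, Crabp1 ran from -0.39 (SmoA2 replicate 2 left out) to 0.37 and Aldh1a3 from -0.0248 to 0.15, and Crabp1 gave -0.0133 without wild type replicate 3. In Smo/Smo against wild type, Dhrs3 gave -0.0028 with the probe set of highest variance. Aldh1a2 ran from -0.13 to 0.0006 and Rarb from -0.0639 to 0.0808 without single arrays. Rarb gave -0.0505 with array weights and -0.0639 where replicate 3 of wild type and of SmoA2 were dropped together.

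Over all genes, 515 were called in SmoA2 against wild type, and 234 to 445 without single arrays, 235 with only the groups compared, 187 at the stricter threshold and 215 without wild type replicate 3 and SmoA2 replicate 3. The highest count was 764, among the 10 alternatives of processing or threshold. In Smo/Smo 71 were called, and 21 to 65 without single arrays, 162 with array weights, 42 with only the groups compared, 19 at the stricter threshold and 38 without those 2 arrays. Between the mutants 490 were called, and 170 to 467 without single arrays, 795 with an intensity trend, 231 with only the groups compared, 142 at the stricter threshold and 296 without those 2 arrays. No paired analysis was possible because the labels give the groups no shared replicate numbers. Signal over background limits Aldh1a3, the dim Rarb probe set and 21 of the 53 other retinoid genes.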

Other observations

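Crabp1 was looked at further after its values were seen. The 5 measured genes on either side of it in the gene order of GRCm38.p6 (Sh2d7, Idh3a, Acsbg1, Dnaja4 and Wdr61 before it, and Ireb2, Hykk, Psma4, Chrna5 and Chrna3 after it) differed by -0.29 to 0.31 on the log2 scale in Smo/Smo against wild type, and none was called. The closest, Wdr61 and Ireb2, gave 0.07 and 0.01, beside 3.13 for Crabp1. These neighbours start between 54534123 (Sh2d7) and 55010117 (Chrna3) on chromosome 9. Genes farther along that chromosome were not looked at, nor were the positions of the genes named next. Among all genes, those most like Crabp1 over the 9 arrays were Hyou1 (r = 0.957), Ift46 (0.939), Clcn1 (0.936), Lbx1 (0.926) and Il25 (0.914). Hyou1, a chaperone of the endoplasmic reticulum, rose in Smo/Smo against wild type by 1.12 on the log2 scale (limma adjusted p = 0.0114), and Ift46, a gene of ciliary transport, rose by 0.44 (0.0208). The other 3 were not called.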
